A study of Mus musculus with 45 samples.

Results

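The genes described here are Brca1, Brca2, Bard1 and Brip1, which act together in the repair of DNA double-strand breaks, measured as DNA copy number in mouse mammary tumors. They were chosen by name, and every array probe annotated with 1 of these 4 gene names was taken, which gave 9 of 42235 probes and 4 of the 20798 gene names on the array. On the mm8 genome build, Bard1 had 2 probes on chromosome 1, Brca2 2 probes on chromosome 5, Brip1 3 probes on chromosome 11 and Brca1 2 probes on chromosome 11. Probes of a gene are called proximal, middle and distal in order of their start coordinate. No exon or intron is given for them, because no annotation of this build was used here.

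Genomic DNA of 45 primary mammary tumors from female mice, 1 array per tumor, was hybridized together with reference DNA to 2-colour Agilent 44K arrays. The 8 models were BRCA1fl/fl;p53+/-;MMTV-cre (n = 5, called BRCA1 tumors here), MMTV-c-Myc (n = 5), C3(1)/SV40 T/t-antigens (n = 5), MMTV-Her2/neu (n = 5), MMTV-H-Ras (n = 5), p53fl/fl;MMTV-cre transplant (n = 6), MMTV-PyMT (n = 9) and MMTV-Wnt1 (n = 5). In BRCA1fl/fl;p53+/-;MMTV-cre mice the floxed Brca1 gene is cut out by Cre recombinase under the mouse mammary tumor virus (MMTV) promoter, which is active in mammary epithelium but not in every cell of a tumor, and 1 of the 2 p53 alleles is missing in the germ line. In p53fl/fl;MMTV-cre transplant tumors p53 is the floxed gene, and the tumor grew in a host mouse. The remaining models carry an oncogene behind the MMTV or C3(1) promoter. Ages were not given in the labels, and the reference DNA is labelled as pooled spleen, although other labels of the same channel name normal mammary tissue.

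Homologous recombination copies the intact sister chromatid across a broken DNA end. Brca1 and Bard1 bind each other through their RING domains to form a ubiquitin ligase that acts early at breaks, and Brip1 is a helicase that binds the BRCT repeats of Brca1. Brca2, joined to Brca1 by Palb2, acts at a later step, on the single-stranded DNA of the processed break. In mammary epithelium Brca1 and Brca2 are tumor suppressors, and tumors that lack them are known for unstable chromosomes.

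Values are log2 ratios of tumor to reference signal, with 0 at the median of the autosomal probes of an array. In the labels the tumor is Cy5 and the reference Cy3. Here Cy3 was read as the tumor, which is the direction of the interval table of the authors and opposes the labels. This direction was settled after values of these data, the distal Brca1 probe among them, had been seen, so the sign at that probe is no independent evidence of it, and with the dyes as labelled every sign turns and every size stays. The Wnt1 probe, which lies in the gene that the MMTV-Wnt1 transgene adds, was higher in MMTV-Wnt1 tumors by 0.92 ± 0.15 (SE, n = 5, limma adjusted p = 0.00414) in the direction used. The tumor Wnt_4635 stood apart from this, with 0.07 against 1.07 to 1.50 in the other 4. The arrays of C3TAg_7RPT and H2N61, and those of C3TAg_5RPT and H2N53, had nearly the same profile although the labels put them in different models (Pearson r of 1 Mb medians 0.928 and 0.960), and the count of tumors gained or lost at these genes is also given without these 5 arrays. The spread of neighbouring probes, an SD of 0.159 to 0.476 per array, was 0.20 to 0.36 in the BRCA1 tumors.

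The distal Brca1 probe (chr11:101340828-101340887) was far below the reference in the BRCA1 tumors, the model in which Brca1 was engineered for deletion. Its log2 ratio was -4.69 in Brcap53_503, -3.58 in Brcap53_682, -5.14 in Brca_14, -1.69 in Brca_42 and -4.76 in Brca_54. All 5 values lay below every value of the other 40 tumors, which ran from -0.64 to 0.78, and the highest of the 5, Brca_42, stood well above the other 4. The BRCA1 tumors averaged -3.97 ± 1.40 (SD, n = 5) and the other models 0.06 ± 0.29 (SD, n = 40). In limma, the BRCA1 tumors were lower than the mean of the other 7 models by a log2 difference of -4.02 ± 0.24 (SE, adjusted p = 2.56e-16), in a comparison that called 2118 (5.01%) of all probes. The tumor signal was not well above background in 4 of the 5, so the size of the mean and of the difference rests on values that were not measured well, which the SE does not cover. The two-sided exact permutation test of the 5 against the 40 tumors gave a difference of -4.03 with p = 8.18e-07, the smallest that its 1221759 assignments allow. Of 40728 probes measured in every tumor, 13 (0.0319%) had all BRCA1 tumors below all others.

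The 2 dyes show what lay behind these ratios. In the Cy3 channel, taken as the tumor, the processed signal of the distal Brca1 probe was 28.8 units in Brcap53_503, 28.2 in Brcap53_682, 44.7 in Brca_14, 453 in Brca_42 and 57.1 in Brca_54. Only Brca_42 was well above background in that channel, and the scanner software had put a surrogate value in place of the signal in the other 4, so their ratios give no exact size and no fold is given for them. The raw mean Cy3 signal was 1.66 times the local background in Brcap53_503, 1.18 times in Brcap53_682, 1.81 times in Brca_14 and 1.75 times in Brca_54, beside 2.54 times in Brca_42. In Brca_42, where the signal was measured, it was 3.23-fold lower, or 31.0% of the reference. The array measured DNA of whole tumors, so a loss in part of the cells and a partial loss in every cell cannot be told apart. The Cy5 signals of the same spots were 755, 353, 1620, 1518 and 1575 units in that order, all well above background. In the other 40 tumors Cy3 ran from 395 to 2338 units (median 1177) and Cy5 from 388 to 1678 units (median 1261), and both channels were well above background on all 40 arrays.

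**Figure D1:**
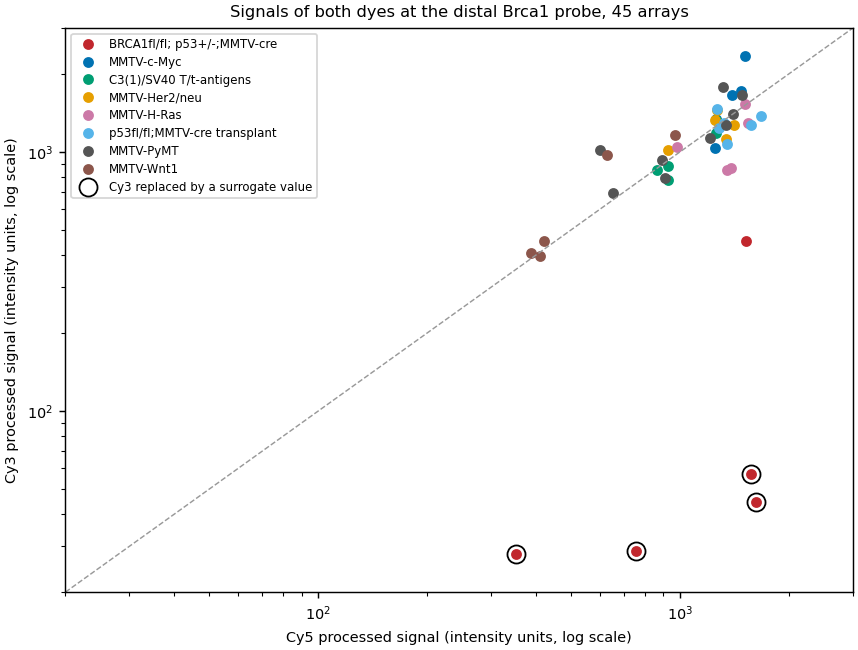
Processed Cy3 signal against processed Cy5 signal of the distal Brca1 probe on 45 arrays (intensity units, both axes logarithmic), 1 point per tumor, coloured by model. Rings mark the 4 BRCA1 tumors with a surrogate Cy3 value, the dashed line marks equal signals, and Brca_42, the BRCA1 point at a Cy3 signal of 453, lies between these 4 and the other models.

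The size of the difference depended on how background was handled. With the normexp background correction, which adds an offset of 50 units and so shrinks ratios of dim spots, the difference was -1.04 (limma adjusted p = 2.03e-06), and the 5 BRCA1 tumors had -1.12, -0.57, -1.25, -0.58 and -1.47. On that scale Brca_42 no longer stood apart from the rest. Without Brca_42 the difference on the processed signals was -4.59, with surrogate values in all 4 tumors that were left.

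The probes around the distal Brca1 probe did not share its level. The nearest probe on the proximal side, 26.8 kb away with none between them, was the proximal Brca1 probe, and the nearest on the distal side lay 35.7 kb away in Nbr1. Over the 10 nearest probes (Rpl27, Ifi35, Vat1, Rnd2, proximal Brca1, Nbr1 with 2 probes, Tmem106a, BC048585 and Rdm1) the means of the BRCA1 tumors lay between -0.82 and 0.58. Relative to the median of these 10, the distal Brca1 probe was at -4.55 in Brcap53_503, -4.21 in Brcap53_682, -5.32 in Brca_14, -1.88 in Brca_42 and -5.09 in Brca_54. That was -4.21 ± 1.37 (SD, n = 5) against 0.07 ± 0.21 (SD, n = 40) in the other models, a difference of -4.29 ± 0.22 (SE, limma adjusted p = 6.24e-18), which became -1.22 with normexp correction (limma adjusted p = 1.10e-09). The lowest of the neighbours was Rdm1, whose protein has a motif of Rad52, 105.6 kb to the distal side, with -0.77, -0.02, -0.76, -0.42 and -2.11 in the same order of tumors (difference -0.97, limma adjusted p = 0.00401). Vat1 differed the other way by 0.45 (limma adjusted p = 0.0441), and the other 8 neighbours did not pass the test.

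**Figure D2:**
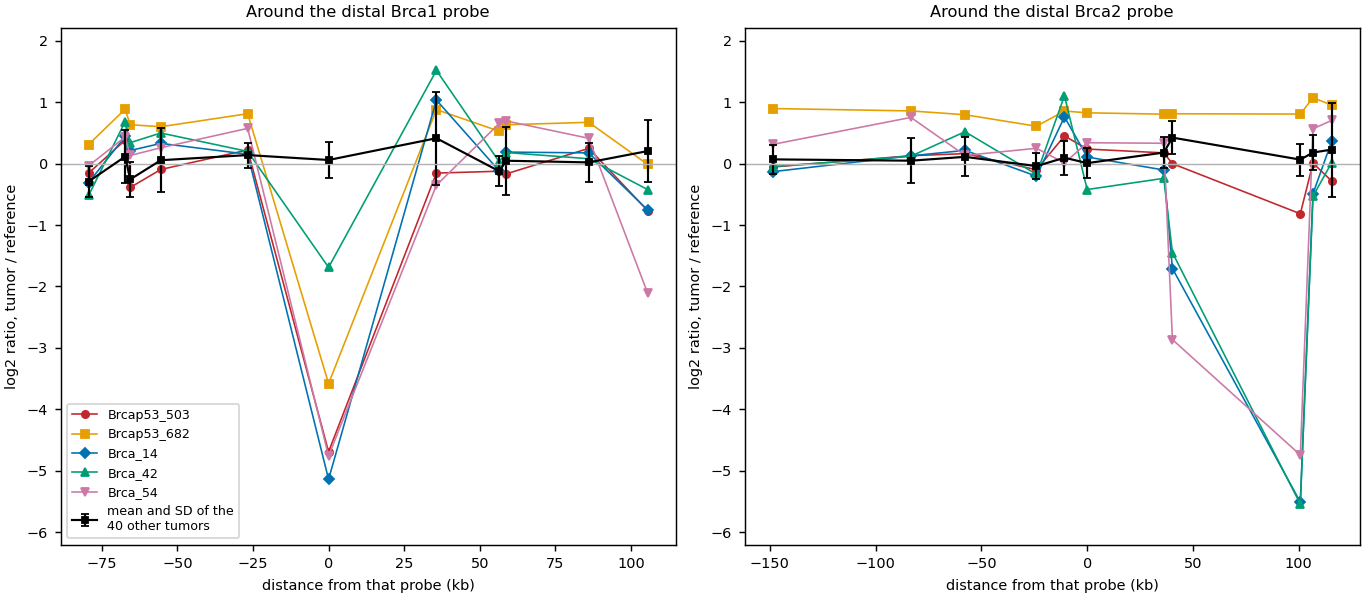
Log2 ratio of tumor to reference against distance in kb from the distal Brca1 probe (left) and from the distal Brca2 probe (right), with the 10 nearest probes of each. Coloured lines are the 5 BRCA1 tumors, and black squares and bars are the mean and SD of the other 40 tumors. On the left the distal Brca1 probe itself is at -1.69 or lower in all 5 tumors, and on the right the probe 100.7 kb away drops to between -5.54 and -4.74 in Brca_14, Brca_42 and Brca_54.

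The drop at Brca1 was among the deepest single-probe changes of these tumors but not the only one. Of all 42235 probes, 2439 (5.77%) deviated from their neighbours differently in BRCA1 tumors and in the other models at an adjusted p under 0.05, with 29 of them lower and 65 higher by more than 2. The distal Brca1 probe was 1 of the 29, and since it rests on surrogate values it has no exact place among them. A probe in Slc10a7, a solute carrier gene on chromosome 8 (chr8:81607086-81607145), was at -4.70. The aberration intervals deposited by the authors hold an interval of the distal Brca1 probe alone in 3 of the 5 BRCA1 tumors, with means of -4.86 in Brca_14, -4.49 in Brca_54 and -4.74 in Brcap53_503, and in no tumor of another model. Intervals of a single probe were frequent in the same tumors, 789 of 1037.

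Over the 45 arrays the probes most like the distal Brca1 probe were the Slc10a7 probe (Pearson r = 0.894) and 2 probes of chromosome 8 that carry no gene name, at chr8:82359633-82359692 (r = 0.883) and with a start at 121130660 (r = 0.822). In that order their means were -4.58, -3.14 and -2.36 in the BRCA1 tumors and 0.17, 0.05 and 0.14 in the other models. Such a gap between the same groups of tumors gives a high r by itself. Each of these correlations runs over arrays of which 5 belong to the BRCA1 tumors and share slides and scan dates with no other model. The 5 arrays lay on 3 slides and 2 scan dates that held no other array, so slide, scan date and model cannot be told apart for these tumors. With scan date as a random block the distal Brca1 difference was -4.04 (limma adjusted p = 4.34e-12).

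The proximal Brca1 probe (chr11:101314063-101314118) was not lower in these tumors. It had 0.22 in Brcap53_503, 0.81 in Brcap53_682, 0.15 in Brca_14, 0.20 in Brca_42 and 0.57 in Brca_54, all above 0. The mean was 0.39 ± 0.29 (SD, n = 5) against 0.14 ± 0.20 (SD, n = 40), a difference of 0.27 ± 0.10 (SE) that did not pass the limma test (adjusted p = 0.104), while the exact permutation test of this single probe gave p = 0.0170. Set against its own 10 nearest probes, the difference was 0.01 (limma adjusted p = 0.951). Its values followed those of chromosome 11 around it: over 45 arrays the likest probes were in Wnt3 (r = 0.814, 2.29 Mb away), AK015727 (r = 0.811, 20.6 Mb away) and Krt25 (r = 0.803, 2.18 Mb away). Beyond 5 Mb they were in AK015727, Znhit3 (r = 0.798) and a probe without a gene name at chr11:85682055-85682114 (r = 0.785). The correlation of the 2 Brca1 probes with each other over 45 arrays was -0.21. It includes the BRCA1 tumors, low at the distal probe only, so it does not show how the 2 probes went together in the other models.

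In the other models the means of both Brca1 probes lay between -0.25 and 0.30. The distal probe averaged 0.21 ± 0.32 (SD, n = 5) in MMTV-c-Myc, -0.05 ± 0.11 (n = 5) in C3(1)/SV40 T/t-antigens, 0.03 ± 0.19 (n = 5) in MMTV-Her2/neu and -0.25 ± 0.38 (n = 5) in MMTV-H-Ras. It averaged -0.03 ± 0.18 (n = 6) in p53fl/fl;MMTV-cre transplant, 0.18 ± 0.31 (n = 9) in MMTV-PyMT and 0.23 ± 0.27 (n = 5) in MMTV-Wnt1 tumors. Ordered by these means, each model differed from the next by less than the larger of their SDs. The lowest single values outside the BRCA1 tumors were -0.64 and -0.63, in the MMTV-H-Ras tumors Hras_An2_3 and Hras_An4_3, and the highest was 0.78 in the MMTV-PyMT tumor PyMt 3. The proximal probe ranged from -0.06 ± 0.17 (SD, n = 5) in MMTV-H-Ras to 0.30 ± 0.23 (SD, n = 9) in MMTV-PyMT tumors, where all 9 values were above 0.

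**Figure D3:**
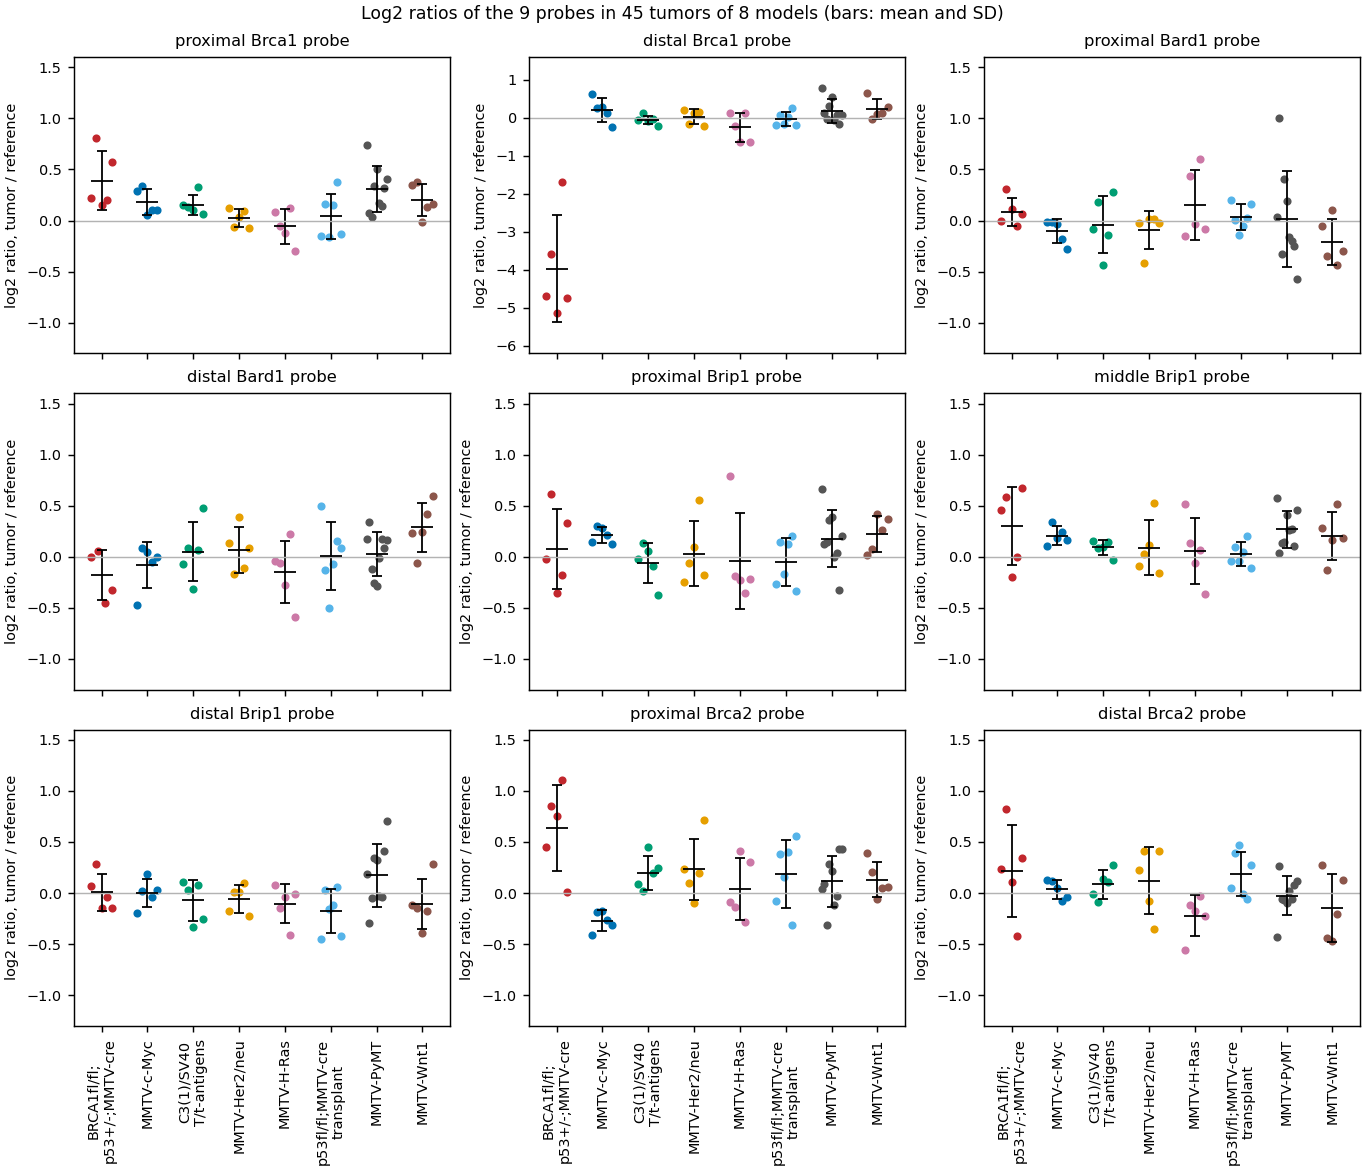
Log2 ratio of tumor to reference (vertical axis) of each of the 9 probes in the 8 models (horizontal axis), 1 point per tumor, with the mean and SD as bars. The distal Brca1 panel has a longer axis than the other 8, because its 5 BRCA1 tumors lie between -5.14 and -1.69, and in the other panels the points of the models overlap.

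Bard1, the RING partner of Brca1, and Brip1, the helicase that binds it, showed no difference that passed the test in the BRCA1 tumors. On the log2 ratios 0 of their 5 probes were called in limma, and 0 had an unadjusted p under 0.05. The proximal Bard1 probe (chr1:70980852-70980911) had values from -0.05 to 0.31, a difference of 0.12 ± 0.14 (SE, limma adjusted p = 0.682). The distal Bard1 probe (chr1:71025129-71025188) had -0.01 in Brcap53_503, 0.06 in Brca_14, -0.45 in Brca_42 and -0.32 in Brca_54, and its spot in Brcap53_682 was left out for an outlier flag. Its difference was -0.21 ± 0.14 (SE, n = 4 against 40, limma adjusted p = 0.419). Set against its own 10 nearest probes the difference was -0.29 (limma adjusted p = 0.0842), with p = 0.0257 in the exact permutation test. The 2 Bard1 probes went together weakly over 44 arrays (r = 0.15).

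The 3 Brip1 probes moved together more closely, and their highest value in the BRCA1 tumors came from Brcap53_682 or Brca_54. The proximal probe (chr11:85890468-85890527) had -0.02 in Brcap53_503, 0.61 in Brcap53_682, -0.36 in Brca_14, -0.18 in Brca_42 and 0.33 in Brca_54. The middle probe (chr11:85991950-85992009) had 0.46, 0.58, -0.20, -0.00 and 0.67 in the same order, and the distal probe (chr11:86005956-86006014) 0.07, 0.29, -0.14, -0.04 and -0.14. Tumors above and below 0 occurred at each, and all overlapped the other models. The differences from the other models were 0.00, 0.17 and 0.06 (limma adjusted p = 0.990, 0.426 and 0.827). Over 45 arrays the proximal and middle Brip1 probes had r = 0.75, and each with the distal one 0.43 and 0.44. The proximal Brca1 probe, on the same chromosome, had r = 0.52 with the proximal, 0.66 with the middle and 0.50 with the distal Brip1 probe.

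Brca2, which acts on the processed break, was higher at 1 of its 2 probes. The proximal Brca2 probe (chr5:150804539-150804598) had 0.45 in Brcap53_503, 0.85 in Brcap53_682, 0.76 in Brca_14, 1.10 in Brca_42 and 0.01 in Brca_54. Brca_54 lay inside the range of the other 40 tumors (-0.42 to 0.71), and so did Brcap53_503, while the other 3 lay above it. The mean was 0.63 ± 0.42 (SD, n = 5) against 0.09 ± 0.27 (SD, n = 40), a difference of 0.54 ± 0.13 (SE, limma adjusted p = 0.00803). The exact permutation test gave p = 0.000542. Set against its own 10 nearest probes the difference was 0.50 (limma adjusted p = 0.0267), with p = 0.00520 in the exact permutation test. The call on the log2 ratio was lost with normexp correction (0.45, limma adjusted p = 0.113), with scan date as a random block (0.52, limma adjusted p = 0.161) and without Brca_42 (0.43, limma adjusted p = 0.0793). The lowest model was MMTV-c-Myc, whose 5 tumors had -0.42, -0.19, -0.17, -0.27 and -0.31, all below 0, and its difference from the other 7 models was -0.49 ± 0.13 (SE, limma adjusted p = 0.0804).

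The distal Brca2 probe (chr5:150815271-150815330), 10.7 kb away, did not follow. It had 0.24 in Brcap53_503, 0.82 in Brcap53_682, 0.11 in Brca_14, -0.42 in Brca_42 and 0.34 in Brca_54, a difference of 0.21 ± 0.13 (SE, limma adjusted p = 0.363). In Brca_42 the 2 Brca2 probes thus read 1.10 and -0.42, and over 45 arrays their correlation was 0.26. On the distal side of the gene, 100.7 kb from this probe, a probe in the transcript AK139490 (chr5:150916009-150916068) fell to -5.51 in Brca_14, -5.54 in Brca_42 and -4.74 in Brca_54. It had -0.82 in Brcap53_503 and 0.80 in Brcap53_682 (difference -3.23 ± 0.44, SE, limma adjusted p = 2.45e-06). Its SD was 2.95 in the BRCA1 tumors and 0.26 in the others. Because limma shares 1 spread over all models, this SE and p do not measure the spread of the BRCA1 tumors. Whether its tumor signal was above background is not given here. A probe in B230342M21Rik, 40.3 kb away, was lower in the same 3 tumors, at -1.71, -1.45 and -2.86 (difference -1.45, limma adjusted p = 6.74e-05). Another probe of B230342M21Rik, 36.2 kb away, was not, with -0.11, -0.24 and 0.33 in these tumors (difference -0.01, limma adjusted p = 0.987). Brca_14, Brca_42 and Brca_54 were hybridized on 1 slide that held no other array, and its part in this was not tested.

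Across the 8 contrasts of each model with the mean of the other 7, the 9 probes gave 2 calls, both in the BRCA1 tumors, where 5.01% of all probes were called (2.18% higher and 2.83% lower). In the other 7 models 0 of 63 values were called in limma. The shares of all probes called there were 0.511% in MMTV-c-Myc, 0.00237% in C3(1)/SV40 T/t-antigens, 0.00474% in MMTV-Her2/neu, 3.15% in MMTV-H-Ras, 16.4% in p53fl/fl;MMTV-cre transplant, 0.187% in MMTV-PyMT and 0.0616% in MMTV-Wnt1 tumors. The distal Brca1 probe had the smallest p of the 63, a difference of 0.73 ± 0.19 (SE, limma adjusted p = 0.0613) in MMTV-PyMT tumors. For each model other than the BRCA1 tumors, the mean of the other 7 includes the low BRCA1 tumors. Every difference at this probe, also under the alternatives below, is thus measured from a low mean. The shares above belong to the main fit, and those of these models under the alternatives are not given here. With arrays weighted by their quality the calls rose to 10. Of the 8 added ones, 4 were the distal Brca1 probe, higher than that low mean in MMTV-c-Myc, MMTV-Her2/neu, MMTV-PyMT and MMTV-Wnt1. The proximal Brca2 probe was then called lower in MMTV-c-Myc tumors, and the distal Brca2 probe and the proximal Bard1 probe lower and the distal Bard1 probe higher in MMTV-Wnt1 tumors. Under other alternatives, MMTV-PyMT tumors were called higher at the distal Brip1 probe with normexp correction (0.31, limma adjusted p = 0.0489) and at the distal Brca1 probe with loess within each array (0.73, limma adjusted p = 0.0313). Without Brca_54, MMTV-c-Myc tumors were called lower at the proximal Brca2 probe (-0.51, limma adjusted p = 0.0313).

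Copy number of the loci as a whole was read from segments, stretches of at least 5 neighbouring probes with a common level, and a gene was counted as gained or lost where all of its probes lay in segments with a mean of at least 0.2 above or below 0. By this measure 19 of 45 tumors (42.2%, exact Clopper-Pearson 95% interval 27.7 to 57.8%) had a change at 1 or more of the 4 genes, and 37 of 180 pairs of gene and tumor (20.6%) were changed, 15.0% gained and 5.56% lost. By the same rule 24.2% of the pairs of 20194 autosomal genes with the 45 tumors were changed, 13.3% gained and 10.9% lost. The count of tumors was 16 of 40 without the 5 arrays named above, and between 14 and 26 of 45 over the other ways of segmenting that were tried. These are counts without a test.

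Brca2 was gained in 11 tumors and lost in 0. Over all autosomal genes the medians were 5 tumors gained and 4 lost, and 14.0% of the genes were gained in 11 or more tumors and 8.59% lost in none. The gains were in the BRCA1 tumors Brcap53_682 (segment mean 0.75) and Brca_54 (0.27), in the C3(1)/SV40 T/t-antigens tumors C3TAg_5RPT (0.30) and C3TAg_8_RPT (0.22), and in Wnt_4635 (0.29). Of the MMTV-Her2/neu tumors H2N1 (0.32), H2N53 (0.28) and H2NA (0.42) were gained, and of the p53fl/fl;MMTV-cre transplant tumors P53_2979 (0.42), P53_5809 (0.21) and P53_8546 (0.40). None of the MMTV-c-Myc, MMTV-H-Ras or MMTV-PyMT tumors had a gain there. In Brca_14 and Brca_42 the distal but not the proximal Brca2 probe lay in a segment of 5 probes with the AK139490 probe, with means of -1.54 and -1.64, and neither tumor was counted. Without the 5 arrays the gains at Brca2 were 8 of 40, and they were 6 of 45 at a segment threshold of 0.3. Losses of Brca2 appeared under other settings, 1 with normexp correction or the intervals of the authors and 2 with the median of 11 probes or centring on the density peak, and with normexp Brca_54 was lost instead of gained.

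Brca1 was gained in 4 tumors and lost in 4. The gains were in the MMTV-PyMT tumors PyMt 3 (0.40), PyMt341 (0.39) and PyMt342 (0.47) and in Wnt_4635 (0.28), and the losses in C3TAg_8_RPT (-0.29), H2NA (-0.23), P53_1573 (-0.28) and P53_8546 (-0.30). No BRCA1 tumor was counted. The distal probe lay in a segment of 6 probes with a mean of -0.94 in Brcap53_503, -0.15 in Brcap53_682 and -0.91 in Brca_54, apart from the segment of the proximal probe, and in Brca_14 and Brca_42 both probes shared a segment near 0. With the distal probe left out before segmentation, Brcap53_682 and Brca_54 were also gained at Brca1, which gave 6 gains. The 10 probes around Brca1 had a median of 0.63 in Brcap53_682 and 0.33 in Brca_54, beside -0.14, 0.18 and 0.16 in the other 3 BRCA1 tumors. The losses fell to 0 at a segment threshold of 0.3 and to 2 with the intervals of the authors. The gains rose to 7 with the median of 11 probes and to 9 with the intervals of the authors, among them the BRCA1 tumors Brcap53_682, Brca_14 and Brca_54, and were 3 of 40 without the 5 arrays, which left the 4 losses.

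Brip1, on the same chromosome, was changed in many of the tumors in which Brca1 was. Its gains were in PyMt 3 (0.62), PyMt341 (0.39), PyMt342 (0.47), Brcap53_682 (0.33) and Brca_54 (0.33), and its losses in C3TAg_8_RPT (-0.29), H2NA (-0.22), P53_1573 (-0.25) and P53_8546 (-0.28). In PyMt341, PyMt342 and C3TAg_8_RPT the same segment held both genes. The 4 losses of Brip1 became 0 at a segment threshold of 0.3, 2 with the intervals of the authors or centring on the density peak, and 7 with the median of 11 probes, and its 5 gains became 8 with that median and 9 with those intervals. None of these gains and losses at the threshold of 0.2 came from the 5 arrays. Bard1, on chromosome 1, was gained in 7 tumors and lost in 2. The largest gain was in C3TAg_8_RPT (0.58), followed by P53_1573 (0.50), Hras_An3_3 (0.46), P53_8546 (0.39), Brca_14 (0.27), Hras_An1_3 (0.23) and P53_5817 (0.21). Its losses were in H2N53 (-0.70, a segment of 5 probes) and C3TAg_5RPT (-0.23), which belong to 1 of the pairs of arrays that resembled each other, so that without the 5 arrays no loss was left beside the 7 gains. At a segment threshold of 0.3 the gains of Bard1 were 4 and the losses 1. At the threshold of 0.2, C3TAg_8_RPT and P53_8546 were changed at all 4 genes, gained at Bard1 and Brca2 and lost at Brip1 and Brca1. With centring on the density peak or the intervals of the authors, neither tumor was lost at Brip1 or Brca1. With normexp correction C3TAg_8_RPT was not gained at Brca2.

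**Figure D4:**
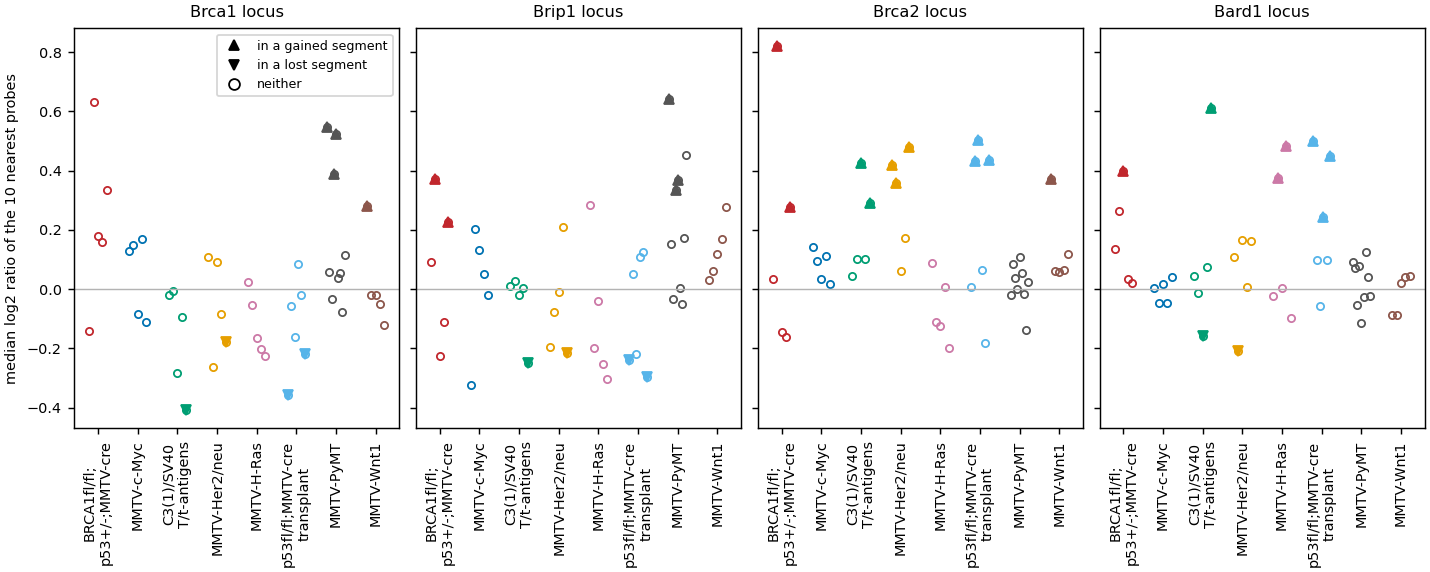
Median log2 ratio of the 10 probes nearest to each gene (vertical axis) in the 8 models, 1 point per tumor, with 1 panel per gene. Triangles mark tumors counted as gained (up) or lost (down) and open circles the rest. The 11 upward triangles at Brca2 have no downward one beside them, whereas Brca1 has 4 of each.

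The other genes of homologous recombination were taken from a list of 56 genes that includes the 4, of which 44 had a probe on the array (92 probes, 6 genes under an older name) and 12, among them Palb2, had none by name. In the BRCA1 tumors against the other models 4 of the 44 genes (9.09%) had a called probe, 1 higher (Brca2) and 3 lower (Brca1, Atm and Fancl). Over all gene names on the array the share was 7.75%. By probes, 4 of 92 (4.35%) were called against 5.01% of all probes, and without the 4 genes 2 of 83 (2.41%). The median difference over the 92 probes was -0.01, beside 0.01 over all probes, with 43 above and 49 below 0.

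Atm is the kinase that signals double-strand breaks. Its called probe (chr9:53275534-53275593) had -0.25 in Brcap53_503, -0.27 in Brcap53_682, -0.86 in Brca_14, -1.42 in Brca_42 and -0.88 in Brca_54, a difference of -0.69 ± 0.14 (SE, limma adjusted p = 0.00144), and all 5 values were below 0. With normexp correction the difference was 0.11 (limma adjusted p = 0.766), so its direction depended on the background correction, and the other Atm probe differed by 0.04 (limma adjusted p = 0.897). Fancl is the ubiquitin ligase subunit of the Fanconi anemia core complex. Its called probe (chr11:26307613-26307672) had -0.57, -0.27, -0.90, -0.57 and -0.11 in the same order, a difference of -0.61 ± 0.12 (SE, limma adjusted p = 0.00114), with -0.45 (limma adjusted p = 0.0753) under normexp correction. The other Fancl probe differed by -0.09 (limma adjusted p = 0.740).

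Trp53, which encodes p53 and is engineered in 2 of the models, showed no drop of this kind at its 2 probes. The proximal Trp53 probe averaged -0.22 ± 0.07 (SD, n = 5) in the BRCA1 tumors and the distal one -0.10 ± 0.19 (SD, n = 5), differences of -0.12 and -0.00 from the other models (limma adjusted p = 0.630 and 0.993). In p53fl/fl;MMTV-cre transplant tumors the differences were 0.02 and -0.21 (limma adjusted p = 0.929 and 0.188). Whether these probes lie inside the floxed part of the gene was not established here, so they check nothing about its deletion.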

How the data were processed

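DNA of tumor and reference was labeled with Cy3 and Cy5 and hybridized to Agilent 44K arrays. The authors deposited Agilent Feature Extraction output for each array (version 9.5.1.1 per the file headers, 10.7 per the labels), with a log10 ratio of Cy5 over Cy3 per spot and processed signals, which are background-subtracted and dye-normalized intensity values. The authors also deposited a table of aberration intervals with log2 means and numbers of probes, called at a threshold of 6, from which the means were used. Its p-values and 8 tables of single models were not used.

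Ratios were sign-turned, put on the log2 scale and shifted so that the median autosomal probe of an array lay at 0. Control spots and flagged outliers were removed and repeated spots of a probe averaged (42235 probes, chromosome X included). Each probe was also set against the median of its 10 nearest probes (5 on each side). Both measures were compared with limma 3.58.1 (R 4.3.3) over all probes, each model against the mean of the other 7, with Benjamini-Hochberg adjustment and a threshold of 0.05. Single values were also tested with two-sided exact permutation tests, run over all assignments in Python. Clopper-Pearson intervals and density peaks used scipy 1.17.1. Segments came from circular binary segmentation (Python 3.11.15, numpy 2.4.6, numba 0.67.0, pandas 2.3.3), where a split needed a statistic above 6 and each segment 5 or more probes. The limma and segmentation steps were tested on simulated data. Figures were drawn with matplotlib 3.10.9.

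Tumors of a model were its replicates, grouped by the model label. The p-values set a difference against the spread between tumors, which limma takes as common to all models. At the distal Brca1 probe the SD was 1.40 in the BRCA1 tumors and 0.29 in the others. The SE and p of limma there do not measure the spread of the BRCA1 tumors alone. The number of arrays and the signal over background limit the precision: the median signal was 3.68 to 16.7 times background in Cy3 and 2.09 to 14.5 times in Cy5. Both channels were well above background for all 360 values of the 8 probes other than distal Brca1. The genes named were the 4 members, every called gene of the homologous recombination list, Trp53, Wnt1 and, for each member probe, the 3 probes of highest correlation, of which those of Brca1 are given. Other genes near Brca1 and Brca2 and the lowest single probe were named after their values were seen. The members and lists were chosen with earlier results of these data known. Probe sequences and GC content were not analysed here.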

Additional observations from a re-analysis of the deposited data

Results flagged for a closer look

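Within models of 4 to 10 tumors, 3 of 72 groups of values held a tumor far from the rest, where chance alone gives about 1 in 20, or 3.6. At the proximal Bard1 probe the MMTV-Her2/neu tumor H2N53 had a log2 ratio of -0.42, with the other 4 between -0.03 and 0.01, and its array is 1 of those with nearly the same profile as an array of another model. At the distal Bard1 probe the MMTV-c-Myc tumor C Myc_04004021 had -0.47, with the other 4 between -0.05 and 0.08. At the proximal Brip1 probe the MMTV-H-Ras tumor Haras_An5_3RPT had 0.79, with the other 4 between -0.35 and -0.19. The causes of these values were not tested.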

How the results depend on the processing

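Over 292 alternatives to 25 results, 4 lost a call with the direction kept (3 at the proximal Brca2 probe and 1 at the Fancl probe) and 38 moved a count by more than 1.5 times. In the BRCA1 tumors the proximal and distal Brip1 differences, called under none, took both signs, from -0.13 to 0.11 and from -0.01 to 0.13. With the dyes as labelled the distal Brca1 difference was 4.02 and the proximal one -0.27, and with normexp correction the Atm probe turned to 0.11 and lost its call. The distal Brca1 probe was called under every other alternative run, from -4.07 to -1.04 over the processing and from -4.59 to -3.72 without 1 BRCA1 tumor, and the proximal probe under none (0.15 to 0.33, adjusted p from 0.0690 to 0.597). The 2118 calls became 456 with normexp (64.9% of them higher, against 43.5%), 1033 with array weights, 921 with slide and 462 with scan date as a random block, and 928 to 2533 without 1 tumor (928 without Brca_14). The 2439 single-probe deviations became 581 (54.7% higher, against 41.9%), 1280, 624, 264 and 979 to 3079 in that order. The calls at the 9 probes over 8 contrasts stayed at 2 with normexp, where the distal Brip1 probe in MMTV-PyMT stood in place of the proximal Brca2 probe. They became 10 with array weights, 1 with scan date as a random block, and 2 to 5 without 1 BRCA1 tumor. Without Brca_42 they were 5, the added 4 being the distal Brca1 probe higher in MMTV-c-Myc, p53fl/fl;MMTV-cre transplant, MMTV-PyMT and MMTV-Wnt1. These 4 are measured from a mean that includes the low BRCA1 tumors. The shares of all probes called in those models under these alternatives are not given here. The called homologous recombination genes were 1 with normexp (Brca1), 3 with scan date as a random block (without Brca2) and 4 to 5 without 1 tumor. Sem1 was added without Brcap53_503, and Rpa1 stood in place of Brca2 without Brca_42. The causes were not tested. Scan date as a random block and segmentation without the distal Brca1 probe were chosen after seeing the data. Scan date as a fixed block was not run, since the dates of the BRCA1 tumors held no other array. No paired analysis was possible because the replicate numbers only follow the order of the samples.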
